A study of Sus scrofa with 24 samples.

Results

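The genes described here are the solute carriers, the SLC families of membrane transport proteins, in the longissimus dorsi muscle of pigs. They were taken by name: every symbol in the array annotation that reads SLC, a number, A and a number was a member, except SLC2A4, a rule that uses no measured value, though it was set with earlier results of these data known. The pattern matched 111 symbols and left 110 members among the 6765 genes that had a probe set with 1 symbol. For the 35 members with several probe sets, the brightest by its mean over all arrays stood for the gene. By family number, with exceptions for single genes, 20 members were classed as mitochondrial, 72 as plasma membrane and 15 as carriers of other organelles. Single members may lie elsewhere in the cell than their class says. Another 3 symbols fit the pattern but name no carrier (SLC2A4RG, SLC9A3R1 and SLC9A3R2), and they are given apart.

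German Landrace (DL) and Pietrain (Pi) pigs were compared at adult age and as fetuses of 35, 63 and 91 days post conception (dpc). Each of these 8 groups has 3 RNA pools, a, b and c, on 24 Affymetrix porcine arrays. No treatment, transgene or deletion is recorded for any group, while sex, adult age and how many animals made up a pool are not stated in the labels. The spread behind each p-value is therefore that between pools. The samples are whole muscle, so fewer cells of a type and less RNA per cell cannot be told apart in any value below.

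Solute carriers move nutrients, ions, metals and metabolites across membranes down or against their gradients, mostly without using ATP themselves. The SLC25 family lies almost entirely in the inner mitochondrial membrane, where its members exchange ADP for ATP, bring in phosphate, and pass the intermediates of fuel oxidation. Plasma membrane families take up glucose, amino acids, creatine, fatty acids and metals, and in glycolytic muscle fibres they release lactate. Pig longissimus is a mainly glycolytic muscle, and Pietrain is a breed known for heavy muscling.

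Values are log2 intensities, deposited after quantile normalisation across all arrays, so every change stands relative to the rest of the array and not to a cell or a weight of tissue. Levels are compared only within a gene, since probe sets differ in how brightly they read. The highest of 23 negative control probe sets served as the background ceiling of each array and lay between 2.31 and 2.69. Defining markers of muscle fibres (9 measured) averaged 9.14 to 10.02 in the 35 dpc pools, 12.85 to 13.10 at 63 dpc, 14.14 to 14.38 at 91 dpc and 15.08 to 15.21 in adults. A list of 9 measured neural markers averaged 10.55 to 10.95 in the 35 dpc pools, with none at background, and 2.20 to 3.31 in all later pools, where 4 to 8 of the 9 lay at background. Adult Pi pool b stood apart by liver genes: 8 measured liver markers averaged 10.38 there against 3.55 and 3.61 in the other adult Pi pools, and albumin (ALB) read 14.54 there. The 63 dpc DL pools also carried liver genes, with list means of 7.48 to 9.72.

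Of the 20 mitochondrial carriers, 17 (85.0%) lay above the background ceiling on all 24 arrays, against 21 of the 72 plasma membrane carriers (29.2%), 9 of the 15 organelle carriers (60.0%) and 68.1% of all genes. For 11 members no array rose above its ceiling, and 9 of these belonged to the plasma membrane class. In all, 83 members were above the ceiling in every pool of at least 1 group. By array, 17 to 19 mitochondrial and 38 to 50 plasma membrane carriers were above the ceiling. For the plasma membrane class the counts were 44 to 46 in DL and 40 to 47 in Pi at 35 dpc, and 38 to 42 and 41 to 47 in adults. The counts below keep all 110 in the denominator. In the RefSeq annotation 37 of the 106 members placed on a chromosome overlap the locus of another gene; among those described, besides the ones named below, SLC25A11 overlaps RNF167, SLC5A6 overlaps ATRAID, SLC37A1 overlaps RSPH1 and SLC22A5 overlaps IRF1, IL5 and RAD50, and which transcript was read was not tested.

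Differences were called at an adjusted p below 0.05 by limma, with the Benjamini-Hochberg adjustment over all 23999 probe sets, and steps between stages were averaged over both breeds. From 35 to 63 dpc, 30 of the 110 members rose and 23 fell, where 30.5% of all genes rose and 24.1% fell. From 63 to 91 dpc, 10 rose and 9 fell, against 12.9% and 13.7% of all genes. From 91 dpc to adult, 38 rose and 22 fell, against 35.4% and 31.5%. Each share of the members lay somewhat below that of all genes, and no test of these differences was made. No group had all its pools above the background ceiling for 27 of the 110 members and 715 of the 6765 genes. The part of this in the lower shares was not tested. Their median log2 changes were 0.037, -0.018 and 0.085 in the 3 steps, beside 0.034, -0.012 and 0.075 for all genes.

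By class, the mitochondrial carriers gave more rises than falls at the first and last steps. Of the 20, 10 rose and 5 fell in the first step, 3 rose and 3 fell in the second, and 12 rose and 2 fell in the last. Their median changes were 0.276, -0.07 and 0.568. Of the 72 plasma membrane carriers, 16 rose and 13 fell, then 6 and 6, then 20 and 14, with medians of 0.008, -0.01 and 0.016. The last mitochondrial step had the same sign in each breed, with a median of 0.562 and 10 of 20 called upwards in DL, and a median of 0.658 and again 10 of 20 in Pi. Organelle carriers gave 2 rises and 4 falls, then none, then 5 rises and 4 falls. Of all genes, 30.5% rose and 24.1% fell in the first step, 12.9% and 13.7% in the second, and 35.4% and 31.5% in the last. For 23 of the 72 plasma membrane and 2 of the 20 mitochondrial carriers, no group had all its pools above the background ceiling. This limits what the plasma membrane counts and medians can show beside the mitochondrial ones. These class medians are descriptions, and no test of one class against another was made.

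The split between rises and falls depends on the reference chosen. When each array was shifted so that the spiked hybridisation controls agreed, the median of all probe sets moved by -0.81, -0.15 and -0.20 in the 3 steps. On that scale 16 members rose and 66 fell in the first step (10.2% and 61.7% of all genes), 6 and 14 in the second (8.32% and 18.8%), and 30 and 31 in the last (27.5% and 37.7%). The mitochondrial carriers then gave 3 rises and 12 falls, 2 and 7, and 10 and 2. Rises from 35 to 63 dpc smaller than that shift turn negative there. Among the called rises of members given below, this holds for SLC25A6, SLC25A20, SLC25A37 and SLC25A38. The adult rise of the mitochondrial class was seen on both scales.

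**Figure D1:**
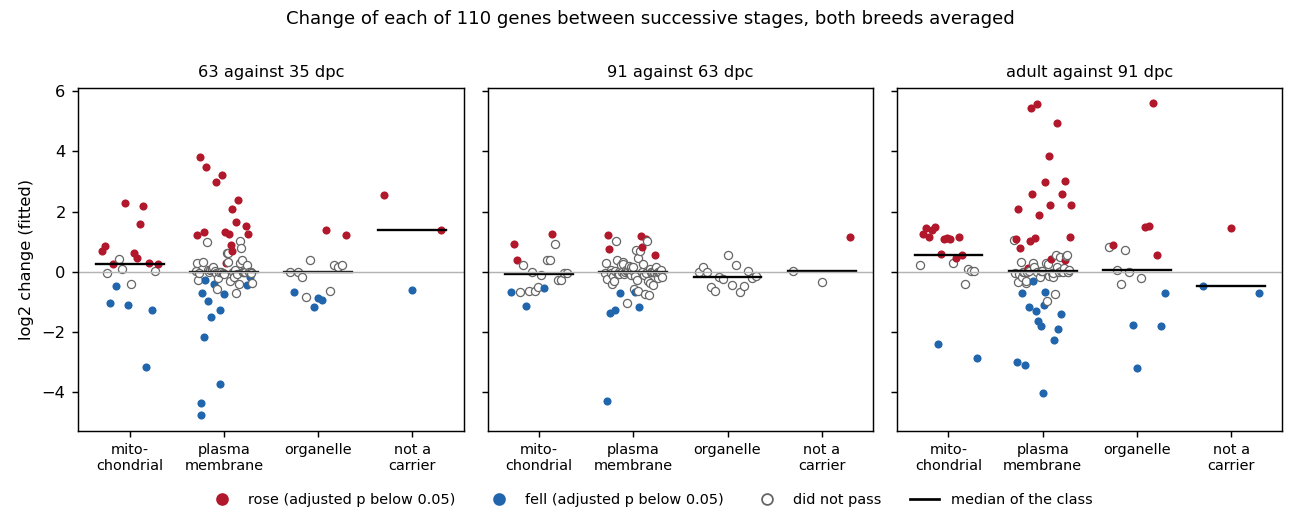
Log2 change of every member at each step between stages, averaged over both breeds, by class; filled red points rose and filled blue points fell by limma, open points did not pass, and the black line is the class median. The mitochondrial medians are 0.276, -0.07 and 0.568 on the deposited scale, where the plasma membrane medians stay within 0.02 of 0. For 23 of the 72 plasma membrane and 2 of the 20 mitochondrial carriers, no group had all its pools above the background ceiling. On the hybridisation-control scale the whole cloud of the first step lies lower by 0.81.

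The ADP/ATP carriers, which hand mitochondrial ATP to the cell in exchange for ADP, moved in different directions by isoform. SLC25A4, the isoform of heart and skeletal muscle, read 10.24, 10.44 and 10.25 in the DL pools at 35 dpc, 12.50, 12.57 and 12.66 at 63 dpc, 13.77, 13.74 and 13.64 at 91 dpc and 14.23, 14.09 and 14.11 in adults. In Pi it read 10.34, 10.17 and 9.95, then 12.20, 12.32 and 12.21, then 13.52, 13.69 and 13.72, then 14.41, 14.16 and 14.41. No pool of a stage overlapped a pool of the stage before it, in either breed. The rises were 2.18 ± 0.07 (4.54-fold, limma adjusted p = 1.84e-14), 1.27 ± 0.07 (adjusted p = 6.03e-10) and 0.56 ± 0.07 (adjusted p = 1.97e-06), where ± is the standard error of the fit.

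SLC25A6, a broadly expressed isoform, stayed between 14.23 and 14.82 in all 18 fetal pools and read 11.62, 11.77 and 11.63 in the adult DL pools and 11.86, 11.79 and 11.97 in the adult Pi pools. The adult pools lay far below every fetal pool, and the fall from 91 dpc was 2.87 ± 0.06 on the log2 scale, 7.29-fold (limma adjusted p = 1.91e-17). Its small rise from 35 to 63 dpc, 0.28 ± 0.06 (adjusted p = 0.00049), turned to -0.53 on the hybridisation-control scale. SLC25A5, the isoform known from growing and dividing cells, fell earlier. It read 9.64 to 9.97 at 35 dpc and 8.20 to 8.85 at 63 dpc, without overlap, a fall of 1.27 ± 0.17 (adjusted p = 4.06e-06). Its later steps, -0.28 and 0.01, did not pass (adjusted p = 0.321 and 0.952). So in the adult pools SLC25A4 stood at its highest of the 4 stages and SLC25A6 at its lowest.

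**Figure D2:**
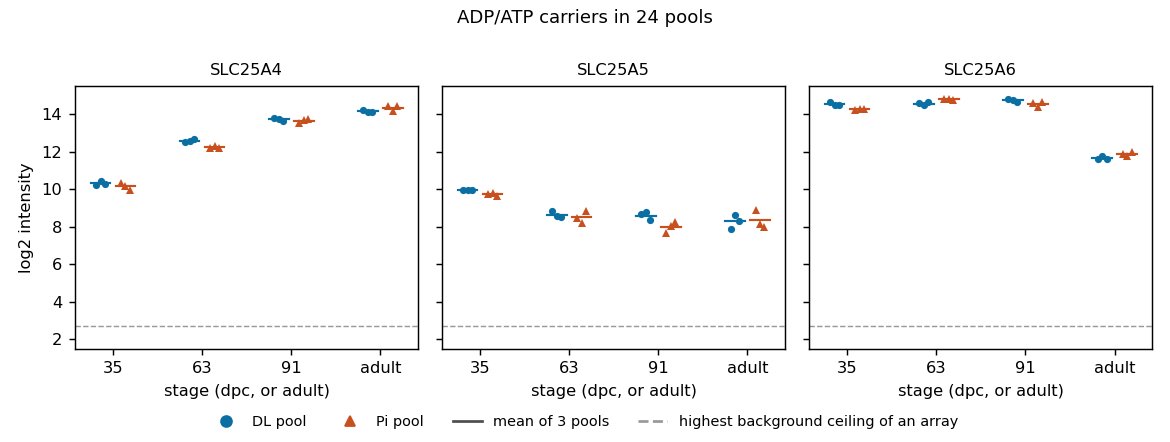
Log2 intensity of SLC25A4, SLC25A5 and SLC25A6 in each RNA pool by stage, with DL as circles, Pi as triangles, bars at the mean of 3 pools, and a dashed line at the highest background ceiling (2.69). SLC25A4 climbs from 9.95 to 10.44 at 35 dpc to 14.09 to 14.41 in adults, SLC25A5 drops after 35 dpc, and SLC25A6 drops to 11.62 to 11.97 in adults; its slight rise at 63 dpc is negative on the hybridisation-control scale.

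Of the carriers that serve ATP synthesis, the malate-aspartate shuttle and acylcarnitine import, the 4 below were called higher in adults. SLC25A3, which imports the phosphate that ATP synthase uses, read 13.37 to 13.96 (median 13.76) at 91 dpc and 13.98 to 14.51 (median 14.37) in adults, a rise of 0.58 ± 0.08 (limma adjusted p = 8.23e-06). On this brightest probe set the earlier changes of 0.09 and 0.01 did not pass. The other probe set of SLC25A3 had stage means of 4.73, 6.21, 6.46 and 8.5. It was called higher in the first step (1.47) and in the last (2.03). SLC25A11, the malate/2-oxoglutarate exchanger of the malate-aspartate shuttle, climbed at every step, with medians of 7.93, 8.79, 9.68 and 11.04 and no overlap between successive stages. Its last step was 1.24 ± 0.11 (adjusted p = 2.81e-08), and its first, 0.86 (adjusted p = 4.95e-06), shrank to 0.05 and did not pass on the hybridisation-control scale (adjusted p = 0.708). The other exchanger of that shuttle, the aspartate/glutamate carrier SLC25A12, had medians of 9.09, 9.03, 9.48 and 10.93 and rose by 1.46 ± 0.11 at the adult step (adjusted p = 3.52e-09). SLC25A20, which brings acylcarnitines in for fatty acid oxidation, read 8.51 to 9.08 at 91 dpc and 9.94 to 10.49 in adults, a rise of 1.38 ± 0.11 (adjusted p = 2.51e-09). The smaller earlier calls, 0.38 for SLC25A12 from 63 to 91 dpc (adjusted p = 0.0261) and 0.27 for SLC25A20 from 35 to 63 dpc (adjusted p = 0.0434, turning to -0.54 on the hybridisation-control scale), did not hold in every fit without 1 pool. The first was lost without pool c of DL or Pi at 63 dpc, pool c of DL at 91 dpc or pool b or c of Pi at 91 dpc (adjusted p up to 0.0785), and with array weights (0.0594). The second was lost without DL 35 dpc pool a, b or c, DL 63 dpc pool b or c, Pi 35 dpc pool b or c, Pi 63 dpc pool a or Pi 91 dpc pool a (up to 0.133).

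Other inner membrane carriers went different ways. SLC25A39, the mitochondrial glutathione importer, had stage medians of 5.77, 7.29, 7.70 and 8.96. Averaged over both breeds it rose by 1.59 ± 0.20 in the first step and 1.17 ± 0.20 in the last (limma adjusted p = 1.94e-06 and 4.97e-05). The first change was 0.50 in DL (limma adjusted p = 0.205) and 2.69 in Pi (3.55e-07). SLC25A30, a carrier related to the uncoupling proteins, rose by 2.30 ± 0.24 from 35 to 63 dpc (medians 6.03 and 8.28, adjusted p = 2.85e-07) and by 1.1 ± 0.24 at the adult step. The iron importer mitoferrin, SLC25A37, rose by 0.63 and then fell by 0.53 in the fetal steps (adjusted p = 0.00121 and 0.013), averaged over both breeds. The first change was 1.13 in DL (limma adjusted p = 0.000236) and 0.14 in Pi (0.741). The second passed in neither breed alone (0.0887 in DL and 0.142 in Pi). At the adult step the probe set used for SLC25A37 changed by 0.28 and its other probe set by 1.53. On the hybridisation-control scale the first change of SLC25A37, averaged over both breeds, was -0.18. SLC25A38, the glycine importer that haem synthesis needs, rose by 0.46 in the first step and 0.47 in the last (adjusted p = 0.0361 and 0.026); the first turned to -0.35 on that scale, and leaving out 1 pool ended the calls in 7 and 4 of the 24 fits. For the first these were DL 35 dpc pools a and b, DL 63 dpc pools b and c, Pi 35 dpc pools b and c and Pi 63 dpc pool b (adjusted p up to 0.107), and for the last DL and Pi 91 dpc pools b, adult DL pool c and adult Pi pool b (up to 0.0805). Erythroid markers, of which 4 were measured, averaged 7.72 to 8.88 at 35 dpc and 3.32 to 5.15 in adults, and their part in these values was not tested.

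A smaller group dipped and returned. SLC25A21, the 2-oxoadipate carrier, had medians of 11.23, 10.64, 9.54 and 11.01, with a fall of 1.14 ± 0.15 from 63 to 91 dpc (limma adjusted p = 1.6e-05) and a rise of 1.49 ± 0.15 at the adult step (adjusted p = 6.69e-08). Its locus overlaps PAX9 in the RefSeq annotation, and which of the transcripts the probe set reads was not tested. SLC25A33, a pyrimidine nucleotide carrier, fell by 1.11 in the first step and rose by 1.12 in the last (adjusted p = 0.000545 and 0.000356). SLC25A14, another carrier near the uncoupling proteins, fell by 1.03 and rose by 1.16 at the same steps, averaged over both breeds. Its first change was -1.61 in Pi (limma adjusted p = 0.00228) and -0.45 in DL (0.454). From 63 to 91 dpc it changed by -1.63 in DL (0.008) and 0.29 in Pi (0.842). The interaction with breed passed in neither step (0.333 and 0.198).

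The clearest adult fall besides SLC25A6 was that of SLC25A24, the calcium-dependent ATP-magnesium/phosphate carrier. It read 10.16 to 10.47 at 91 dpc, 8.56, 8.67 and 8.49 in the adult DL pools, and 8.31, 7.44 and 6.12 in the adult Pi pools. All adult pools were below all fetal ones, and the fall was 2.39 ± 0.23 (limma adjusted p = 4.42e-08). The other probe set of SLC25A24 had means of 3.94 at 91 dpc and 3.6 in adults (-0.35, not called). SLC25A46, an outer membrane protein of mitochondrial dynamics, read 5.68 to 6.16 at 35 dpc and 2.32 to 3.62 at 63 dpc, a fall of 3.17 ± 0.44 (adjusted p = 8.3e-06). Of the later pools only adult DL pool b, at 6.28, read as high as those of 35 dpc. The fall came in the step in which the neural markers went from 10.55 to 10.95 down to 2.92 to 3.31; their part in it was not tested.

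**Figure D3:**
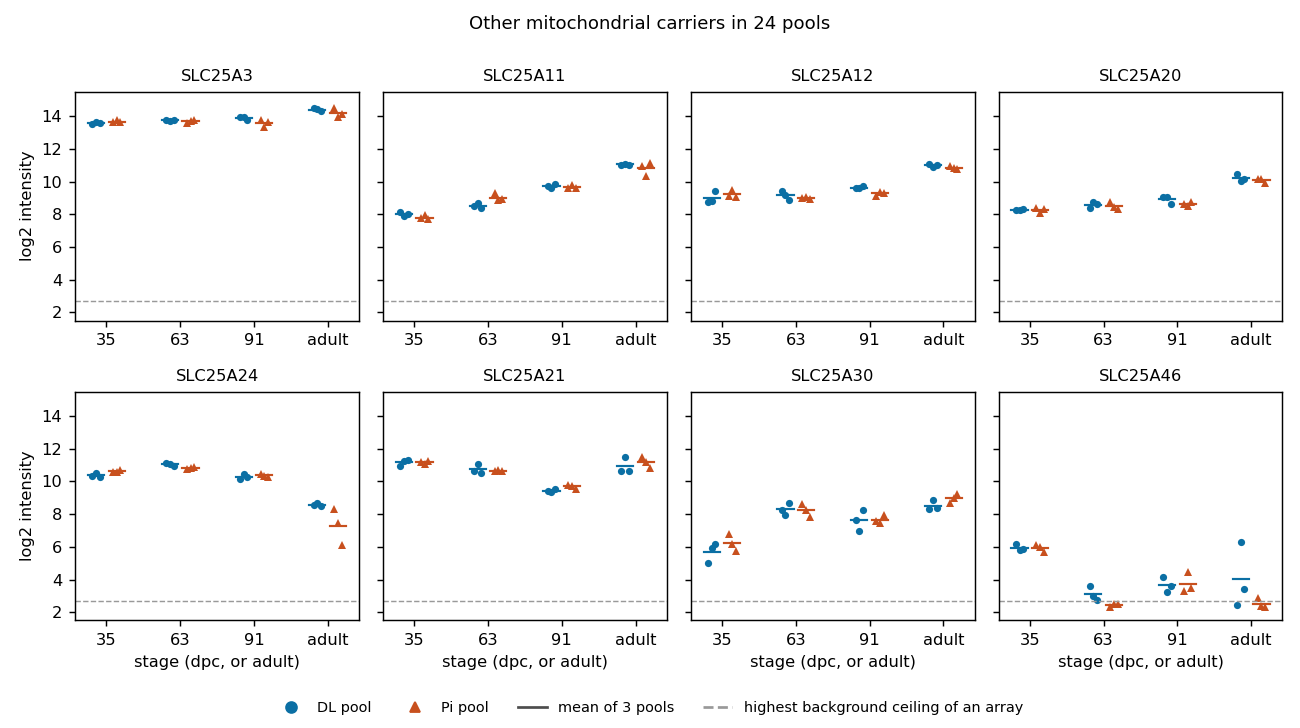
Log2 intensity of 8 mitochondrial carriers in each RNA pool by stage (DL circles, Pi triangles, bars at the mean of 3 pools, dashed line at the highest background ceiling, 2.69). SLC25A3, SLC25A11, SLC25A12 and SLC25A20 are highest in the 6 adult pools, SLC25A24 is lowest there, SLC25A21 is lowest at 91 dpc and SLC25A46 drops after 35 dpc, with 1 adult DL pool at 6.28; the 63 dpc rise of SLC25A20 is negative on the hybridisation-control scale.

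At the plasma membrane, carriers of lactate and creatine rose through development. SLC16A3 (MCT4), the lactate exporter of glycolytic fibres, read 4.10, 3.93 and 4.64 in DL at 35 dpc, 6.96, 7.06 and 7.24 at 63 dpc, 7.86, 8.02 and 8.50 at 91 dpc and 10.12, 9.97 and 9.76 in adults. In Pi it read 3.52, 3.29 and 2.59, then 7.55, 8.01 and 8.11, then 8.35, 8.20 and 8.64, then 10.54, 10.81 and 10.93. The first step was 3.81 ± 0.17, 14-fold (limma adjusted p = 2.01e-12), the second 0.77 ± 0.17 (adjusted p = 0.003) and the last 2.09 ± 0.17 (adjusted p = 5.5e-09). Its chaperone at the membrane, basigin (BSG), rose by 1.6 ± 0.10 in that first step, from a mean of 7.78 to 9.38 (adjusted p = 4.08e-10). SLC6A8, the creatine transporter, rose at every step, with medians of 6.43, 8.11, 8.53 and 11.51; the middle rise of 0.57 (adjusted p = 0.0153) did not pass on the hybridisation-control scale (0.0667). Its adult step of 3.02 ± 0.16 was 8.14-fold (adjusted p = 1.14e-11), with adult pools at 11.44 to 11.71 and no 91 dpc pool above 8.79.

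Among hexose transporters, SLC2A12 (GLUT12) was high in adults. It lay at or near background in the fetal pools, with a highest value of 2.84 at 35 dpc and 2.28 later, and read 7.95, 7.82 and 8.14 in adult DL and 7.0 to 7.63 in adult Pi. The adult level was at least 39.1-fold above the background ceiling at 91 dpc (fitted rise 5.58 ± 0.12, limma adjusted p = 1.04e-16). Its locus overlaps TBPL1, and which transcript was read was not tested. SLC2A3 (GLUT3), a high-affinity glucose transporter, went the other way, with medians of 9.37, 7.97, 8.27 and 6.77. Averaged over both breeds it fell by 1.25 ± 0.29 in the first step (adjusted p = 0.00139) and by 1.63 ± 0.29 in the last (adjusted p = 8.71e-05). Its adult change was -2.79 in DL (limma adjusted p = 1.69e-05) and -0.46 in Pi (0.381). SLC2A5 (GLUT5) had stage means of 5.91, 2.17, 2.13 and 4.01, near background at 63 and 91 dpc. Its first change was -3.84 in DL (limma adjusted p = 0.00224) and -3.63 in Pi (0.00288). Its adult change was 2.53 in DL (0.0253) and 1.23 in Pi (0.271). SLC2A1 (GLUT1), the transporter of basal glucose uptake, had medians of 8.46, 7.80, 6.75 and 5.90. Averaged over both breeds, only its adult fall of 1.32 ± 0.50 passed (adjusted p = 0.0311), and this was lost without DL 91 dpc pool c (adjusted p = 0.0701), Pi 91 dpc pool c (0.0761), adult Pi pool b (0.0595) or adult Pi pool c (0.0762). That change was -2.05 in DL (limma adjusted p = 0.0232) and -0.58 in Pi (0.545).

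Amino acid carriers split at the adult step. SLC3A2 (4F2hc), the heavy chain that carries large neutral amino acid transporters to the membrane, read 6.29 to 6.82 at 91 dpc and 10.17 to 10.84 in adults, a rise of 3.85 ± 0.27 or 14.4-fold (limma adjusted p = 6.47e-10). SLC38A1 (SNAT1), which takes up glutamine and other small neutral amino acids with sodium, moved opposite: 7.05 to 7.79 at 91 dpc and 2.55, 2.93 and 2.72 in adult DL and 3.82, 5.35 and 2.86 in adult Pi. That fall was 4.03 ± 0.28 or 16.3-fold (adjusted p = 6.4e-10), with no overlap. Of the 3 probe sets of SLC38A1, 2 were called lower at this step. The other had means of 3.33 at 91 dpc and 3.5 in adults (0.17, not called). The smaller first step of SLC38A1, -0.72 (adjusted p = 0.0427), was lost without any 1 of the 35 and 63 dpc pools other than DL 63 dpc pool b, or without Pi 91 dpc pool b (adjusted p up to 0.0884). SLC1A5 (ASCT2), a glutamine exchanger, rose by 1.32 ± 0.12 at 63 dpc and fell by 0.70 ± 0.12 in adults (adjusted p = 7.35e-08 and 9.64e-05), while the related SLC1A4 changed by 0.33, -0.40 and -0.16 and passed in no step (adjusted p = 0.339, 0.337 and 0.607).

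In the SLC1 family, which holds the high-affinity glutamate transporters and the neutral amino acid exchangers SLC1A4 and SLC1A5, 4 of the 6 members fell from 35 to 63 dpc. SLC1A2, the main glial glutamate transporter of the brain, read 7.11 to 7.54 at 35 dpc and 2.45 to 2.81 at 63 dpc, a fall of 4.75 ± 0.23 or 27.0-fold (limma adjusted p = 5.55e-12). SLC1A1, a neuronal and epithelial one, read 7.77 to 8.16 (median 7.93) at 35 dpc, and at 63 dpc 5.76, 2.50 and 3.46 in DL and 4.34, 2.69 and 2.84 in Pi. Its fall was 4.34 ± 0.38 (adjusted p = 2.63e-08), and 2 of its 5 probe sets fell. SLC1A6, known from cerebellar neurons, fell by 2.16 ± 0.24 (adjusted p = 6.58e-07). SLC1A3, another glial glutamate transporter, lay near background already at 35 dpc, at 2.15 to 3.86 with 4 of 6 pools above the ceiling, and fell by 0.69 (adjusted p = 0.0469). All 6 pools of 35 dpc were high for SLC1A1 and SLC1A2 and none overlapped the later stage. The neural marker list fell in the same step (8 of 9 called), and its part in these falls was not tested.

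Peptide, cation and nucleoside carriers included several with steep steps. SLC15A2 (PEPT2), a proton-coupled uptake carrier of small peptides, read 9.87, 10.08 and 10.08 in DL and 9.47, 9.65 and 9.78 in Pi at 35 dpc, and 9.43, 9.50 and 9.95 and 9.47, 9.52 and 9.44 at 63 dpc. At 91 dpc it read 5.08, 4.28 and 5.57 in DL and 6.31, 6.40 and 3.96 in Pi, and in adults 2.14 to 2.93. The fall at 91 dpc was 4.28 ± 0.32 or 19.5-fold (limma adjusted p = 2.56e-08) and the adult fall 2.99 ± 0.32 (adjusted p = 2.46e-07). Its locus overlaps EAF2, and which transcript was read was not tested. SLC22A3 (OCT3), a carrier of organic cations and monoamines, peaked at 63 dpc, with medians of 4.99, 8.25, 7.05 and 3.89. It rose by 3.48 ± 0.18 (adjusted p = 1.54e-11) and then fell by 1.25 ± 0.18 and 3.10 ± 0.18. Its locus overlaps the plasminogen gene PLG, a liver gene, and which transcript was read was not tested. SLC29A1 (ENT1), the equilibrative nucleoside transporter, rose by 2.98 ± 0.47 at 63 dpc, from a median of 3.48 to 6.30 (adjusted p = 3.58e-05).

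Several ion and metal carriers rose. SLC4A4, the electrogenic sodium bicarbonate cotransporter, read 1.97 to 2.33 at 91 dpc, not above background, and 6.22 to 8.03 in adults, at least 25.7-fold higher (fitted rise 4.96 ± 0.25, limma adjusted p = 6.21e-12). SLC26A6, an anion exchanger, read 2.64 to 3.59 at 91 dpc and 7.96 to 8.55 in adults, a rise of 5.43 ± 0.28 or 43.2-fold (adjusted p = 1.21e-11). SLC4A2, the chloride/bicarbonate exchanger AE2, was not above background at 35 dpc and read 2.55 to 5.72 at 63 dpc, at least 4.18-fold higher (adjusted p = 0.00046). SLC41A1, a magnesium transporter, rose at every step, with medians of 3.67, 5.85, 6.98 and 9.10 and no overlap between successive stages; its middle step, 1.18 (adjusted p = 0.00253), was 0.5 and did not pass with the mean of its probe sets (0.133). SLC39A14, which imports zinc and iron, rose by 2.98 ± 0.47 at the adult step (adjusted p = 2.37e-05). SLC31A2, a copper transporter, rose by 3.23 ± 0.15 at 63 dpc, with medians of 6.52 and 9.78, and fell by 1.81 ± 0.15 in adults (adjusted p = 3.68e-12 and 7.56e-09).

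Uptake carriers for vitamins and lipids included SLC5A6, the sodium-dependent transporter of biotin and pantothenate, at 4.52 to 5.79 at 91 dpc and 7.30 to 8.26 in adults, a rise of 2.59 ± 0.19 (limma adjusted p = 1e-09). SLC27A1, the fatty acid transport protein FATP1, rose by 2.57 ± 0.52 at that step (adjusted p = 0.000362) with pools that overlapped, at 2.92 to 6.47 in adults and 2.12 to 4.30 before. Adipocyte markers (4 measured) averaged 6.14 to 7.64 at 91 dpc and 6.77 to 7.82 in adults; their part was not tested. SLC46A1, the proton-coupled folate transporter, rose by 1.66 ± 0.44 at 63 dpc and fell by 2.25 ± 0.44 in adults (adjusted p = 0.00429 and 0.000225). The adult change was -3.22 in DL (limma adjusted p = 0.000301) and -1.29 in Pi (0.0952). Its other probe set did not fall in adults, with means of 4.61 at 91 dpc and 4.85 in adults (0.24, not called). The carnitine importer SLC22A5 had medians of 2.38, 3.47, 4.27 and 4.70, and none of its steps passed (adjusted p = 0.148, 0.222 and 0.593).

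**Figure D4:**
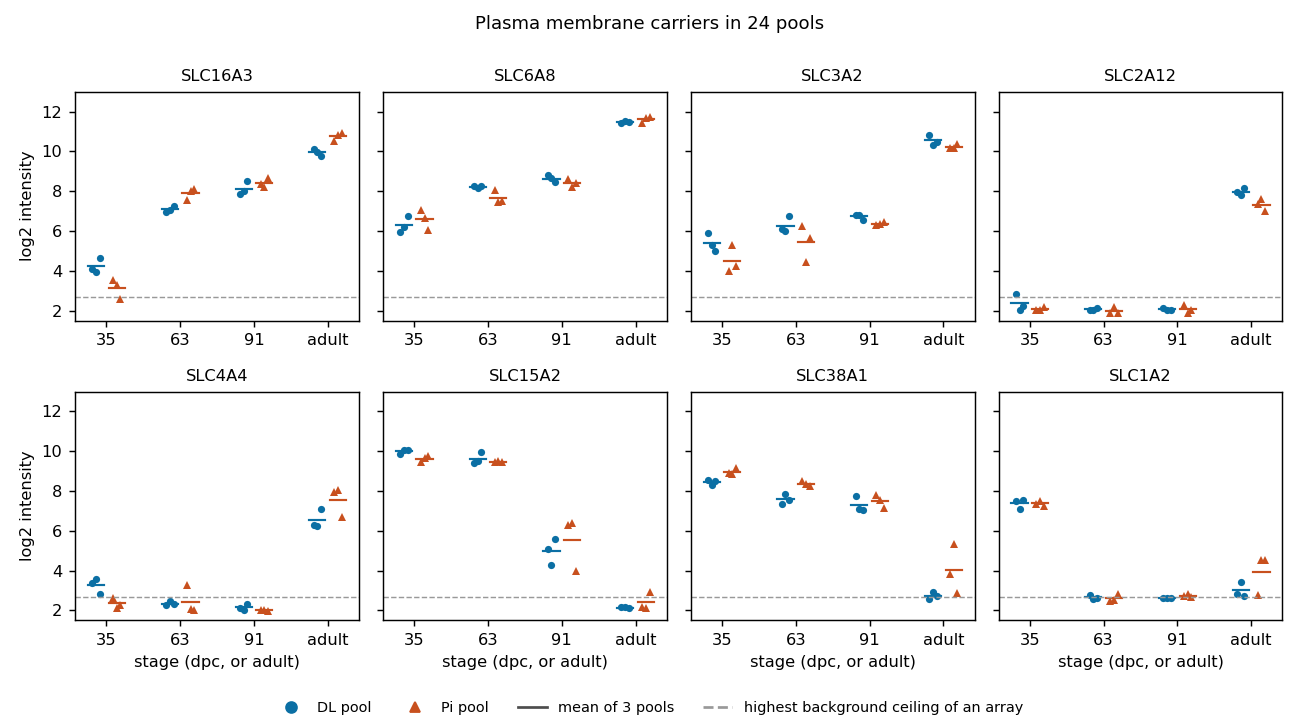
Log2 intensity of 8 plasma membrane carriers in each RNA pool by stage (DL circles, Pi triangles, bars at the mean of 3 pools, dashed line at the highest background ceiling, 2.69). SLC16A3, SLC6A8 and SLC3A2 are highest in adults, SLC2A12 and SLC4A4 read 6.22 or more in adults and 3.58 or less in all fetal pools, SLC15A2 drops at 91 dpc, SLC38A1 drops in adults and SLC1A2 drops from 7.11 to 7.54 at 35 dpc to 2.45 to 2.81 at 63 dpc, close to the ceiling.

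Among organelle carriers the largest rise was that of SLC37A4, which passes glucose 6-phosphate into the endoplasmic reticulum. It read 4.78 to 6.95 at 91 dpc and 11.47 to 11.90 in adults, a rise of 5.61 ± 0.26 or 48.7-fold (limma adjusted p = 2.3e-12). The largest fall was that of SLC33A1, the acetyl-CoA carrier of the endoplasmic reticulum, from 6.13 to 6.81 at 91 dpc to 2.46 to 5.33 in adults (3.21 ± 0.32, adjusted p = 7.62e-08). Zinc carriers of the secretory pathway also fell at that step, SLC39A7 by 1.81 ± 0.18 (adjusted p = 7.08e-08) and SLC30A5 by 1.75 ± 0.36 (adjusted p = 0.000406), averaged over both breeds. The change of SLC30A5 was -0.93 in DL (limma adjusted p = 0.154) and -2.58 in Pi (0.00038). Of the symbols that name no carrier, SLC2A4RG, a transcription factor named for the gene SLC2A4, rose by 2.55 ± 0.10 at 63 dpc, and the scaffold protein SLC9A3R2 rose by 1.41 and 1.15 and then fell by 0.70.

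Genes known to work with these carriers were taken from a list of 30, of which 22 were measured. From 35 to 63 dpc 14 of the 22 rose and 3 fell (all genes 30.5% and 24.1%), from 63 to 91 dpc 9 and 3 (12.9% and 13.7%), and at the adult step 10 and 7 (35.4% and 31.5%). On the hybridisation-control scale 5 rose and 12 fell, then 5 and 3, then 6 and 7 (all genes 10.2% and 61.7%, 8.32% and 18.8%, and 27.5% and 37.7%). UCP3, an uncoupling protein that belongs to the SLC25 family under another symbol, had stage means of 2.16, 2.89, 2.93 and 10.53 and rose by 7.60 ± 0.24 in adults (limma adjusted p = 1.04e-14). UCP2 had means of 4.96, 8.49, 7.95 and 3.18, rising by 3.53 ± 0.32 and later falling by 4.76 ± 0.32. The muscle carnitine palmitoyltransferase CPT1B, which makes the acylcarnitines that SLC25A20 carries, rose by 4.35 ± 0.22 at 63 dpc (adjusted p = 1.6e-11), before the main step of that carrier. Carnitine acetyltransferase (CRAT) rose by 2.58 ± 0.15 at 63 dpc and by 2.45 ± 0.15 in adults. The beta 1 subunit of the sodium pump, ATP1B1, whose gradient drives sodium-coupled uptake, went from a mean of 10.90 to 8.41 and back to 11.31 and 12.07, with a fall of 2.49 ± 0.11 and a rise of 2.90 ± 0.11. VDAC1, VDAC2 and VDAC3, the pores of the outer mitochondrial membrane, rose by 0.30, 0.42 and 0.42 at 63 dpc, rises that are smaller than the shift to the hybridisation-control scale and turn negative on it.

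The control probe sets that read RNA integrity differed between stages, and not in the same direction. The 3' minus 5' difference was 0.25 to 1.31 in the fetal pools and -0.61 to -0.39 in adults for GAPDH. For actin it was 2.12 to 2.68 at 35 dpc, 1.21 to 1.55 at 63 dpc, 1.41 to 2.99 at 91 dpc and 2.28 to 2.59 in adults. Pools of a group spread more in adults, with residual standard deviations of 0.646 to 0.853 for single arrays against 0.287 to 0.378 at 35 dpc. The part of these measures in the changes between stages was not tested. Markers of other cells also fell at the adult step, at which SLC2A1, SLC2A3, SLC38A1 and SLC25A24 fell when averaged over both breeds. Endothelial markers averaged 8.23 to 9.19 at 91 dpc and 6.62 to 7.51 in adults (5 of 7 called lower). Fibroblast and tendon markers averaged 9.58 to 10.97 and 8.12 to 8.96 (3 of 4 called lower). Their part in these falls was not tested. Some members were high in single adult pools. SLC10A1, the bile acid carrier of liver cells, read 2.09 to 2.34 in 23 pools and 8.07 in adult Pi pool b, the pool with the liver genes. SLC5A10 read 2.95, 6.19 and 2.12 in adult DL and 5.48, 1.98 and 7.32 in adult Pi. Without adult Pi pool b, 39 members rose and 21 fell at the adult step.

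The breeds differed in few of these genes. At 35 dpc 6 members were called, 1 higher and 5 lower in Pi (5.51% of all genes in either direction). None was called at 63 dpc (1.92% of all genes) or 91 dpc (3.62%) by limma, though 17 and 13 had an unadjusted p below 0.05. In adults 8 were called, 3 higher and 5 lower in Pi (6.96%), and averaged over stages 5 were called, 1 higher and 4 lower (7.82%). The direction at 35 dpc depends on scaling: on the hybridisation-control scale, where Pi shifts upwards by 0.51 over all probe sets, 34 members were higher and 1 lower (34.3% and 0.695% of all genes).

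The largest difference at 35 dpc was in SLC25A39, the glutathione importer. It read 6.56, 6.24 and 6.92 in DL and 4.69, 4.32 and 5.31 in Pi, without overlap, a difference of -1.80 ± 0.28 (limma adjusted p = 0.000867). SLC38A10, an amino acid transporter family member, read 7.18, 7.46 and 7.26 in DL and 6.16, 6.44 and 6.32 in Pi (-0.99, adjusted p = 0.00305). SLC3A1, a heavy chain of amino acid transporters in kidney whose locus here overlaps PREPL, was lower in Pi by 0.88 (adjusted p = 0.0268), a call lost without DL pool a or b or any Pi pool of that age (up to 0.105). SLC8A1, the sodium/calcium exchanger, was higher by 0.34 (adjusted p = 0.0212), with Pi pools at 2.44 to 2.87 and DL pools not above background at 2.26 to 2.30, and was lost without Pi pool a or any DL pool of that age (up to 0.075). SLC16A3 was lower in Pi by 1.09 (adjusted p = 0.0137); the call was lost without DL pool c (adjusted p = 0.0826) or Pi pool c (0.0829) of that age. The same pools differed in other measures. Marker lists without overlap between the breeds were those of myofibres (9.83 to 10.02 in DL and 9.14 to 9.40 in Pi), erythroid cells (8.64 to 8.88 and 7.72 to 8.17), adipocytes (3.58 to 3.63 and 2.96 to 3.26) and immune cells (3.25 to 3.4 and 3.08 to 3.21). The GAPDH 3' minus 5' difference was 0.52 to 0.80 and 1.08 to 1.21, and hybridisation controls averaged 10.40 to 10.64 and 9.94 to 10.14. Their part in the breed differences was not tested. On the hybridisation-control scale SLC16A3, SLC38A10 and SLC3A1 kept their sign and no longer passed (adjusted p = 0.0608, 0.0657 and 0.249), and with only the arrays compared SLC25A39 narrowly missed (0.0521). SLC25A6, lower in Pi by 0.29 (adjusted p = 0.0474), was higher by 0.22 on the hybridisation-control scale, and its call was lost in 17 of the 24 fits without 1 pool (up to 0.22).

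In adults SLC22A3 gave the largest difference. It read 5.43, 5.84 and 5.35 in DL and 2.25, 2.43 and 2.17 in Pi, a difference of -3.25 ± 0.25 (limma adjusted p = 6.76e-07), and averaged over stages it was lower in Pi by 1.16. Of the other 4 calls averaged over stages, SLC38A1 was higher in Pi by 0.69 (adjusted p = 0.0459), and SLC5A4, SLC26A11 and SLC25A37 were lower by 0.68, 0.56 and 0.37 (0.0367, 0.047 and 0.0356); those of SLC38A1 and SLC25A37 were lost in 19 and 15 of the 24 fits without 1 pool. SLC26A11, a sulfate transporter, read 5.11, 4.64 and 5.49 in DL and 2.41, 3.64 and 2.51 in Pi (-2.23, adjusted p = 0.00043). Higher in Pi were the glucose transporter SLC2A3, at 8.41, 6.95 and 7.31 against 5.91, 6.59 and 4.76 (1.81, adjusted p = 0.0119), and SLC38A10, at 7.36, 7.24 and 7.39 against 6.83, 6.11 and 6.30 (0.91, adjusted p = 0.00466). The sign of SLC38A10 in adults is thus opposite to that at 35 dpc. SLC37A1 was also higher in Pi (2.31, adjusted p = 0.0135), a call lost without adult DL pool a (0.0631) or adult Pi pool a (0.0541). SLC5A4 was lower by 1.84 (adjusted p = 0.0063). SLC25A24 was lower by 1.28 (adjusted p = 0.0228), lost without adult DL pool a (0.0519) or b (0.0608). SLC2A12 was lower by 0.64 (adjusted p = 0.0389), lost without adult DL pool a or c, adult Pi pool a or c, or Pi 35 dpc pool b (up to 0.141). With array weights, which allow the adult pools a larger spread, SLC22A3 and SLC26A11 still passed, and with only the adult arrays SLC22A3 alone did. SLC16A3, at 10.54, 10.81 and 10.93 in Pi and 10.12, 9.97 and 9.76 in DL, did not overlap between breeds and missed the threshold (0.81, adjusted p = 0.0534); it passed when DL 35 dpc pool c (0.044), DL 91 dpc pool c (0.0439), Pi 35 dpc pool a (0.0454) or c (0.0298), Pi 63 dpc pool a (0.0494) or adult Pi pool a (0.0495) was left out. In these adults fibroblast and tendon markers (4 measured) averaged 8.65 to 8.96 in DL and 8.12 to 8.52 in Pi, endothelial markers 6.62 to 6.87 and 6.94 to 7.51, and myofibre markers 15.17 to 15.21 and 15.08 to 15.16. Liver markers averaged 4.85 to 6.16 in DL and 3.55, 10.38 and 3.61 in Pi. The GAPDH 3' minus 5' difference was -0.46 to -0.39 in DL and -0.61 to -0.55 in Pi. The part of these measures in the breed differences was not tested.

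**Figure D5:**
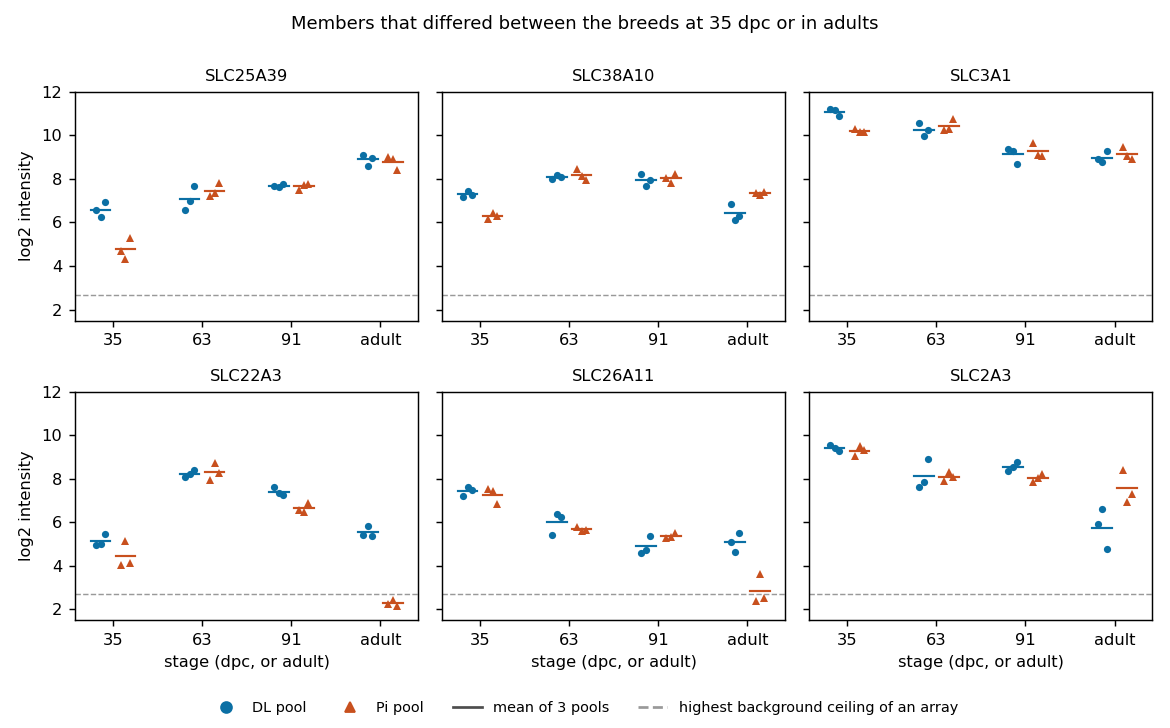
Log2 intensity of 6 carriers with a breed difference in each RNA pool by stage (DL circles, Pi triangles, bars at the mean of 3 pools, dashed line at the highest background ceiling, 2.69). SLC25A39, SLC38A10 and SLC3A1 are lower in Pi at 35 dpc, a direction given on the deposited scale, SLC22A3 and SLC26A11 are lower in adult Pi, and SLC2A3 and SLC38A10 are higher in adult Pi.

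The change of a member between stages differed between the breeds, by the interaction term, in 6 members from 35 to 63 dpc (5.19% of all genes), in none from 63 to 91 dpc (0.0887%; 9 at an unadjusted p below 0.05 by limma) and in 4 from 91 dpc to adult (3.03%). In the first step SLC16A3 rose by 2.87 in DL and 4.76 in Pi, starting from the lower Pi level at 35 dpc, and SLC25A39 changed by 0.50 in DL and 2.69 in Pi. In the last step SLC22A3 changed by -1.86 in DL and -4.35 in Pi. From 63 dpc on the pools of the breeds overlapped for SLC25A39.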

How the data were processed

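Total RNA from pooled muscle was hybridised to Affymetrix GeneChip Porcine Genome Arrays after TRI Reagent extraction, DNase treatment and biotin labelling from 500 ng, per the labels' protocols. The authors deposited a table of log2 intensities, 1 for each probe set on each array. The submitters' processing notes name GCOS 1.1.1; how probes were summarised and corrected for background is not stated there. Base 2 was inferred from the range of 1.60 to 16.10. The sorted columns are identical, so the deposited table is quantile-normalised and hides shifts in total mRNA. A free-text label calls the animals of the 18 fetal pools peripubertal; the fetal stages given in titles and characteristics were used. The number of arrays, 3 per group, limits the precision.

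Of 24123 probe sets, 124 controls were left out and 23999 were tested; 10069 had 1 gene symbol, 198 several and 13732 none. Members kept the array's symbols, 108 of 110 of which were found in the RefSeq table (Sscrofa11.1). limma 3.58.1 in R 4.3.3 fitted 8 group means to all 24 arrays (16 residual and 1.31 prior degrees of freedom, two-sided tests, 11 comparisons), assuming equal spread. Where all pools of a side lay at or below their background ceilings, a fold is given as "at least", against the ceiling. Other folds near background are not exact.

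Named genes were the 8 largest rises and falls per step that passed without overlap of pools, the 8 largest breed differences, the 5 largest interactions each way, and a fixed panel, of which some genes, among them SLC25A13, SLC16A1, SLC7A5, SLC7A8, SLC38A2, SLC6A6, SLC4A1, SLC12A2, SLC20A1, SLC30A1 and SLC40A1 are not analysed here; any other gene was chosen after its values were seen. Members, classes and lists were chosen with earlier results of these data known. Pool letters do not pair the samples. The model was tested on simulated data. The alternatives were hybridisation-control scaling, a filter on dim probe sets, the mean of a gene's probe sets, array weights, a trended prior, only the arrays compared, a block, and leaving out each pool. Figures used matplotlib 3.10.9 in Python 3.11.15 with pandas 2.3.3.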

Additional observations from a re-analysis of the deposited data

Results flagged for a closer look

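The values below are members whose step between stages differed between the breeds by limma's interaction term, given as the Pi change minus the DL change with its adjusted p. No cause was tested for any of them.

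From 35 to 63 dpc the difference was 2.19 for SLC25A39 (adjusted p = 0.00443; 0.50 in DL and 2.69 in Pi) and 1.89 for SLC16A3 (0.00472; 2.87 and 4.76). It was 1.33 for SLC7A1, a cationic amino acid transporter (0.0237; -1.10 and 0.24), whose DL pools went from 9.06, 9.17 and 8.92 to 7.91, 8.24 and 7.71. It was 1.09 for SLC38A10 (0.0228; 0.77 and 1.87) and 0.52 for SLC25A6 (0.016; 0.02 and 0.54), which turned to -0.10 on the hybridisation-control scale. For SLC37A4 it was -1.99 (0.0429; 1.22 and -0.77). The call of SLC38A10 was lost without DL 35 dpc pool b, DL 63 dpc pool a or Pi 63 dpc pool a (adjusted p up to 0.0593). That of SLC7A1 was lost without DL 35 dpc pool a or b, DL 63 dpc pool a or c, Pi 35 dpc pool c or Pi 63 dpc pool b (up to 0.0634), and that of SLC37A4 in 16 of the 24 fits without 1 pool (up to 0.102).

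From 91 dpc to adult the difference was 2.33 for SLC2A3 (adjusted p = 0.0375; -2.79 and -0.46) and 1.17 for SLC44A2, a choline transporter-like protein (0.0464; -0.15 and 1.02). It was -2.71 for SLC26A11 (0.00399; 0.19 and -2.52) and -2.5 for SLC22A3 (0.00158; -1.86 and -4.35). The calls of SLC2A3 and SLC44A2 were lost in 11 and 18 of the 24 fits without 1 pool (adjusted p up to 0.0816 and 0.101).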

How the results depend on the processing

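Counts of members called moved by over 1.5 times as follows. With hybridisation-control scaling 16 rose and 66 fell from 35 to 63 dpc, 6 rose and 14 fell from 63 to 91 dpc, 35 differed between breeds at 35 dpc, 13 at 91 dpc and 2 averaged over stages, and the interaction of the first step gave 30. With array weights the breed counts were 14 at 35 dpc, 2 at 63 dpc, 2 in adults and 3 averaged, and the interactions gave 12 and, for the adult step, 1. With only the arrays compared the counts were 3 at 35 dpc, 1 in adults, 10 for the first interaction and 1 for the last. The mean of a gene's probe sets gave 1 at 91 dpc and 3 averaged, and the trended and robust prior gave 3 averaged. The replicate block gave 2 for the adult-step interaction and moved no other count by over 1.5 times; same-letter pools of different groups correlated at -0.08 to 0.09.

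Leaving out each pool gave 26 to 31 rises and 17 to 23 falls in the first step, 7 to 11 and 8 to 12 in the second, and 34 to 39 and 20 to 23 in the last. Breed counts were 3 to 7 at 35 dpc (3 without DL pool a or b, or Pi pool a or c, of that age), 0 to 2 at 63 dpc, 0 to 1 at 91 dpc, 7 to 13 in adults (13 without adult DL pool c) and 1 to 6 averaged. The interactions gave 3 to 7 (3 without DL 35 dpc pool b), 0 to 0 and 2 to 6.

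Called changes of members given above that reversed in direction, all on the hybridisation-control scale, were 63 against 35 dpc for SLC25A6 (-0.53), SLC25A20 (-0.54), SLC25A37 (-0.18) and SLC25A38 (-0.35), and for SLC25A6 the breed difference at 35 dpc (0.22) and the first interaction (-0.10). That scaling shows a shift of all probe sets; the cause of the other moves was not tested. Members near the background ceiling limit what a missing call can show.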
